A study of Mus musculus with 12 samples.

Results

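The genes of sterol and fatty acid synthesis were compared among 4 populations of dendritic cells (DC), the antigen-presenting cells of the immune system, from inflamed mouse lung. The set was a list of 33 gene symbols: the enzymes of cholesterol synthesis, the regulators that switch them on and off, 1 sterol transfer protein, and the enzymes that make, desaturate and elongate fatty acids. A gene was measured where the platform annotation gave a probe set that symbol alone. This held for 32 of the 33 genes, and all 32 passed the filter on low signal and were among the 10929 genes tested. The remaining gene, Acat2, was not analysed here.

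Every cell came from male C57BL/6J mice aged 8 to 12 weeks that had received 100 ng of lipopolysaccharide, a bacterial cell wall component, together with 100 ug of ovalbumin, a foreign protein, into the airway in 50 ul. Lungs were taken 16 h later, and the samples hold no untreated mice, so that nothing here speaks of the response to the treatment. The 4 sorted populations were CD103+ conventional DC (CD103+ cDC), conventional DC high in CD11b and low in CD14 (CD14lo cDC), monocyte-derived DC high in CD11b and CD14 (CD14hi moDC), and the monocyte-derived DC high in CD11b and Ly6C that the labels call inflammatory by the prefix inf. (Ly6Chi moDC). Each had 3 replicates of 20 mice, a labelled purity above 93%, and 1 array of amplified RNA per replicate. Values are MAS5 signals, intensities in arbitrary units, with the SD over the 3 arrays of a population after each ± beside a level, and they cannot be set against each other between genes because probe sets differ in brightness.

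Cholesterol is built from acetyl-CoA through the mevalonate steps to farnesyl diphosphate, then through squalene to lanosterol, and finally through a chain of demethylations, reductions and double-bond shifts. Most of these enzymes are switched on together by the transcription factor SREBP2 (Srebf2). SCAP carries it from the endoplasmic reticulum to be cleaved when membrane sterol is low, and the INSIG proteins hold it back when sterol is high. SREBP1 (Srebf1) is better known for driving fatty acid synthesis, in which acetyl-CoA is carboxylated, condensed into palmitate, and then desaturated and elongated.

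The sort markers followed the labels. Itgae, which encodes CD103, had a mean signal of 15178 for CD103+ cDC, 855 for CD14lo cDC, 140.1 for CD14hi moDC and 86.5 for Ly6Chi moDC. Cd14 averaged 968, 1537, 11669 and 10836 in the same order of populations, and Zbtb46, a transcription factor of conventional DC, averaged 4535, 3001, 1424 and 189. Of 9 sort and study markers tested, 3 were called higher in CD14hi moDC than in Ly6Chi moDC, namely Zbtb46, Flt3 and Dpp4. Flt3 averaged 753 in CD14hi moDC and 113 in Ly6Chi moDC, and Dpp4 1444 and 339, while 1 marker, Itgam, was called lower. The part of conventional DC RNA in CD14hi moDC was not tested. Ly6C could not be checked, because neither Ly6c1 nor Ly6c2 had a probe set of its own symbol alone. Array medians ran from 72.4 to 109. The ratio of 3' to 5' signal of the Gapdh controls, which rises as RNA degrades, was 2.74 ± 0.91 in CD103+ cDC, against 1.66 ± 0.22 in Ly6Chi moDC (SD, n = 3 each), and within CD103+ cDC it was 1.68 in replicate 2 and 3.26 and 3.27 in the others. The same ratio of the beta-actin controls did not show this, at 1.04 ± 0.08 in CD103+ cDC and 1.03 ± 0.03 in Ly6Chi moDC (SD, n = 3 each). Summed over the 9 lung epithelium genes on the array, the signal ran from 6957 to 11606 for CD103+ cDC, from 2241 to 4863 for CD14lo cDC, from 2687 to 3742 for CD14hi moDC and from 1863 to 2801 for Ly6Chi moDC. Only 6 of these 9 passed the signal filter. The largest parts for CD103+ cDC were Scgb1a1, with a mean of 4857, and Epcam, with a mean of 2526.

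Ly6Chi moDC had the lowest mean signal of the 4 populations for 23 of the 32 genes, a share of 71.9%, against 30.6% of all genes tested. For 14 of the 32, all 3 Ly6Chi moDC arrays lay below all 9 arrays of the other populations, a position that 9.61% of all genes tested held. These 14 were Hmgcs1, Mvk, Idi1, Fdps, Fdft1, Sqle, Lss, Cyp51, Msmo1, Hsd17b7, Sc5d, Srebf2, Stard4 and Fasn. They took in 11 of the 17 enzymes of sterol synthesis but 1 of the 9 genes of fatty acid synthesis, desaturation and elongation. For none of the 32 genes did Ly6Chi moDC lie above all other arrays, which 7.36% of all genes did. CD103+ cDC lay above all other arrays for 5 genes, Hmgcs1, Pmvk, Idi1, Fdft1 and Scd1 (against 11.9% of all genes tested, 15.6% of the 32). CD14lo cDC lay above them for 1 gene, Sqle (against 2.7%), and neither it nor CD14hi moDC lay below them for any (against 1.74% and 1.84%). In bulk RNA from sorted cells, a lower signal in every cell and fewer cells carrying the signal cannot be told apart.

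**Figure D1:**
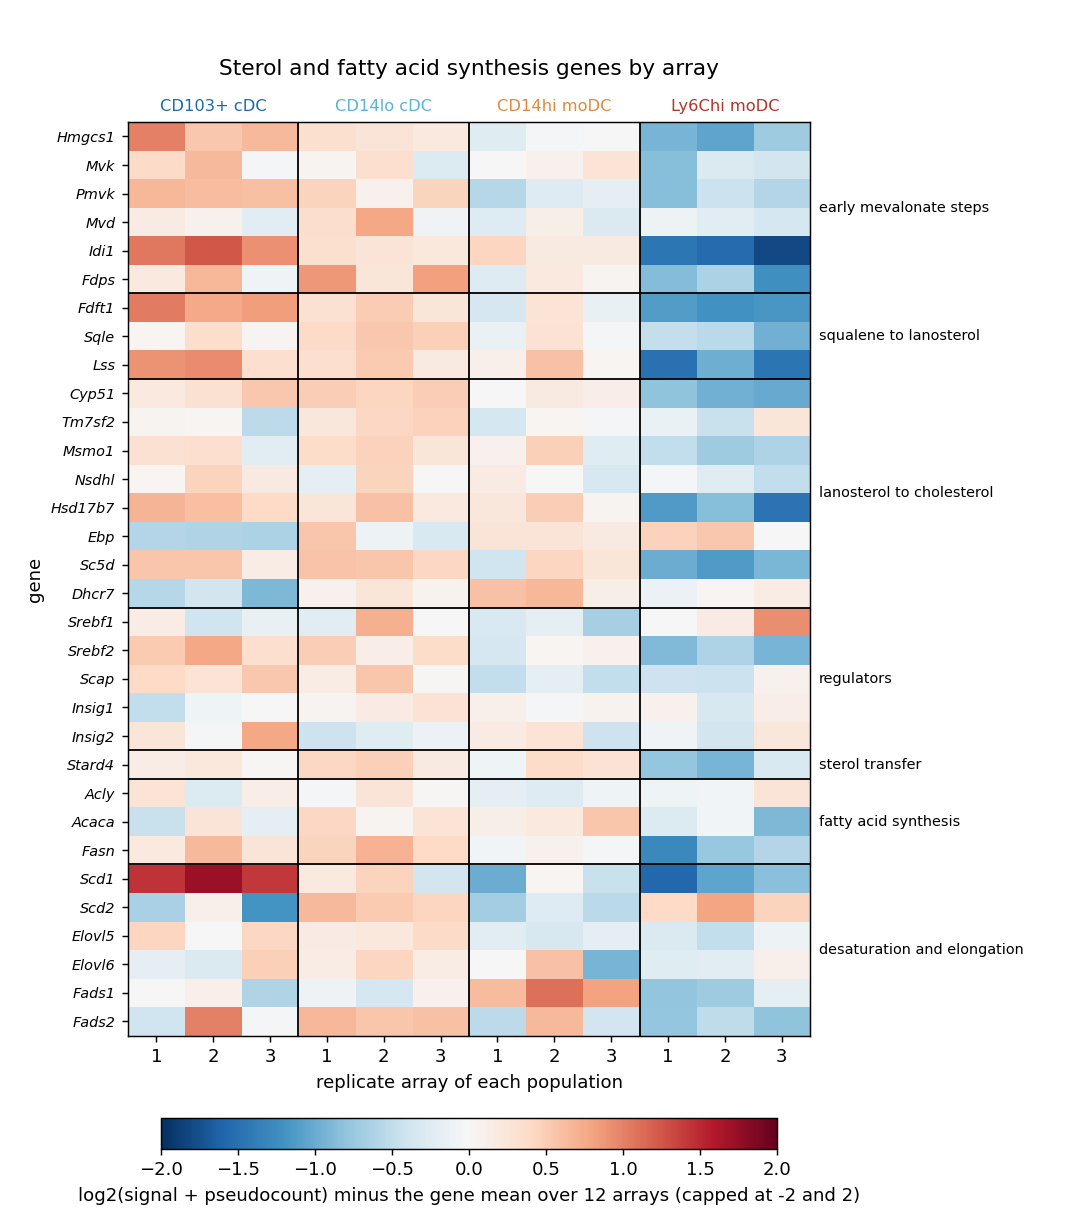
Each row is 1 of the 32 genes, ordered by its step in the pathway, and each column 1 of the 12 arrays, 3 per population. Colour gives log2 of signal plus pseudocount minus the mean of that gene over the 12 arrays, capped at -2 and 2. The Ly6Chi moDC columns are blue in most rows of the sterol steps, the rows of Ebp, Dhcr7 and Scd2 run differently, and Scd1 is reddest in CD103+ cDC.

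Among the genes of the mevalonate steps, Idi1 differed most between populations. Idi1 encodes the isopentenyl diphosphate isomerase, which balances the isoprene units from which all sterols are built. Its signal was 9280.3, 10609 and 8480.5 in the CD103+ cDC arrays, 5553, 5338 and 5164 in CD14lo cDC, 6024, 5066 and 5028 in CD14hi moDC, and 1606, 1493 and 1243 in Ly6Chi moDC. CD103+ cDC stood above and Ly6Chi moDC below all other arrays, while the middle pair of populations overlapped. Set against Ly6Chi moDC, Idi1 was higher in CD103+ cDC by 2.67 ± 0.13 on the log2 scale (SE, 6.36-fold, limma adjusted p = 9.5e-12). It was higher in CD14lo cDC by 1.86 ± 0.13 (3.63-fold, adjusted p = 5.8e-09) and in CD14hi moDC by 1.86 ± 0.13 (3.63-fold, adjusted p = 9.9e-09). All comparisons against Ly6Chi moDC share the same 3 Ly6Chi moDC arrays and are not independent of each other.

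Hmgcs1, the synthase that makes HMG-CoA at the entry to the pathway, was graded across the populations. It read 13048, 9324 and 10066 in CD103+ cDC, 8016, 7735 and 7375 in CD14lo cDC, 5428, 6247 and 6462 in CD14hi moDC, and 3369, 3078 and 3911 in Ly6Chi moDC. No population overlapped its neighbour in that order. CD103+ cDC exceeded Ly6Chi moDC 3.08-fold (adjusted p = 1.4e-08), CD14lo cDC exceeded it 2.22-fold (adjusted p = 3.7e-06) and CD14hi moDC 1.74-fold (adjusted p = 0.00036). The step between the middle pair, CD14lo cDC over CD14hi moDC, was 0.35 on the log2 scale and did not pass the threshold.

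Fdps, which makes farnesyl diphosphate, peaked in a different population. It gave 774, 1087 and 635 in CD103+ cDC, 1262, 796 and 1211 in CD14lo cDC, 546, 773 and 693 in CD14hi moDC, and 343, 410.1 and 254 in Ly6Chi moDC. CD103+ cDC overlapped both CD14lo cDC and CD14hi moDC, which did not overlap each other, and Ly6Chi moDC lay below them all. The difference from Ly6Chi moDC was 1.18 in CD103+ cDC (adjusted p = 0.00025), 1.56 in CD14lo cDC (adjusted p = 3.2e-05) and 0.91 in CD14hi moDC (adjusted p = 0.0071), on the log2 scale.

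Pmvk, the phosphomevalonate kinase, set the conventional populations apart rather than Ly6Chi moDC alone. Its signal was 4514, 4349 and 4307 in CD103+ cDC, 3865, 3008 and 3870.2 in CD14lo cDC, 1892, 2346 and 2490.5 in CD14hi moDC and 1537, 2087 and 1856 in Ly6Chi moDC. Every cDC array was above every moDC array, and both moDC populations overlapped. CD14hi moDC minus Ly6Chi moDC was 0.29 for Pmvk, short of the threshold. Mvk, the mevalonate kinase, was called in CD103+ cDC against Ly6Chi moDC, by 0.83, while its differences of 0.54 in CD14lo cDC and 0.61 in CD14hi moDC were not called. The Mvk signal averaged 449 ± 113 for CD103+ cDC, 357 ± 85.2 for CD14lo cDC, 373 ± 41.0 for CD14hi moDC and 229 ± 55.2 for Ly6Chi moDC. Mvd, the decarboxylase that follows, was called in CD14lo cDC against Ly6Chi moDC, by 0.57 (adjusted p = 0.043). The Mvd signal averaged 758 ± 111 for CD103+ cDC, 994 ± 301 for CD14lo cDC, 674 ± 116 for CD14hi moDC and 633 ± 58.3 for Ly6Chi moDC. Its SD was widest in CD14lo cDC, the population of its call.

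All 3 enzymes from squalene to lanosterol were called higher than in Ly6Chi moDC in each of the other populations. Fdft1, the squalene synthase that commits farnesyl diphosphate to sterols, read 4070.0, 3337 and 3521 in CD103+ cDC, 2415, 2799 and 2313 in CD14lo cDC, 1529, 2367 and 1751 in CD14hi moDC, and 874, 814 and 837 in Ly6Chi moDC. The spread was narrowest in Ly6Chi moDC, and the middle populations overlapped by 1 array. Against Ly6Chi moDC, Fdft1 was 4.13-fold higher in CD103+ cDC (adjusted p = 3.4e-09), 2.86-fold in CD14lo cDC (adjusted p = 6.3e-07) and 2.13-fold in CD14hi moDC (adjusted p = 5.6e-05). Its probe set carries a suffix that marks possible cross-hybridisation, as do those of Hsd17b7, Acly and Elovl5.

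Lss, which closes squalene epoxide into lanosterol, was 1651, 1698 and 1095 in CD103+ cDC, 1096, 1256 and 982 in CD14lo cDC, 929, 1313 and 881 in CD14hi moDC, and 272, 411 and 279 in Ly6Chi moDC. The first 3 populations overlapped throughout, so Lss parted Ly6Chi moDC from the rest without ordering the rest. The log2 difference from Ly6Chi moDC was 2.04 ± 0.20 in CD103+ cDC (adjusted p = 1.4e-07), 1.66 ± 0.20 in CD14lo cDC (adjusted p = 5.2e-06) and 1.56 ± 0.20 in CD14hi moDC (adjusted p = 2.0e-05). Sqle, the squalene epoxidase, was highest in CD14lo cDC, at 1007, 1125 and 1076, all 3 arrays above the rest of the series. It averaged 850.3 ± 116 for CD103+ cDC, 789 ± 129.9 for CD14hi moDC and 467 ± 89.6 for Ly6Chi moDC (SD, n = 3 each).

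The 8 enzymes from lanosterol to cholesterol did not move as 1 block. Cyp51, the lanosterol demethylase, gave 3619, 3923 and 4602 in CD103+ cDC, 4476, 4293 and 4451 in CD14lo cDC, 3166, 3593 and 3458 in CD14hi moDC, and 1792, 1601 and 1539 in Ly6Chi moDC. Hsd17b7, which works in the removal of the methyl groups, gave 732, 690.1 and 595 in CD103+ cDC, 527, 682 and 513 in CD14lo cDC, 522, 636 and 457 in CD14hi moDC, and 172, 220.4 and 125 in Ly6Chi moDC. Sc5d, a late desaturase, gave 933, 934 and 689 in CD103+ cDC, 943, 928 and 839 in CD14lo cDC, 456, 853 and 739 in CD14hi moDC, and 286, 255 and 304 in Ly6Chi moDC. In each of the 3 the Ly6Chi moDC arrays were lowest and clear of the others.

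Relative to Ly6Chi moDC, Hsd17b7 was 3.29-fold higher in CD103+ cDC (adjusted p = 7.8e-07), 2.83-fold in CD14lo cDC (adjusted p = 1.1e-05) and 2.66-fold in CD14hi moDC (adjusted p = 3.8e-05). The same folds were 2.41, 2.64 and 2.04 for Cyp51 and 2.70, 2.87 and 2.15 for Sc5d, with adjusted p up to 0.00059. Msmo1, a methyl sterol oxidase, differed less, by 0.74, 0.96 and 0.71 on the log2 scale, and was called in all 3. The Msmo1 signal averaged 771 ± 169 for CD103+ cDC, 894 ± 71.5 for CD14lo cDC, 756 ± 199.6 for CD14hi moDC and 434 ± 38.2 for Ly6Chi moDC. Tm7sf2 and Nsdhl, a sterol reductase and a sterol dehydrogenase of these steps, were called in none of the 7 comparisons. For Nsdhl the difference of CD103+ cDC from Ly6Chi moDC was 0.47 ± 0.20 (SE, adjusted p = 0.061), with a 95% interval of 0.05 to 0.89. The Nsdhl signal averaged 754 ± 115 for CD103+ cDC, 689 ± 172 for CD14lo cDC, 618 ± 109 for CD14hi moDC and 532 ± 94.8 for Ly6Chi moDC. Tm7sf2 averaged 183 ± 19.9 for CD14lo cDC and between 116 and 119.8 for the others (SD, n = 3).

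Ebp and Dhcr7 ran the other way. Ebp encodes a sterol isomerase, and Dhcr7 the reductase that completes cholesterol from its last precursor. The Ebp signal was 611, 604 and 594 in CD103+ cDC, 1410.2, 873 and 759 in CD14lo cDC, 1137, 1138 and 1071 in CD14hi moDC, and 1316, 1401 and 940.5 in Ly6Chi moDC. The Dhcr7 signal was 688, 799.9 and 538 in CD103+ cDC, 1123, 1254 and 1106 in CD14lo cDC, 1603, 1699 and 1143 in CD14hi moDC, and 965, 1075 and 1172 in Ly6Chi moDC. For both genes the 3 CD103+ cDC arrays lay below the other 9, as they did for 12.2% of all genes tested.

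Ebp was lower in CD103+ cDC than in Ly6Chi moDC by -0.94 ± 0.20 on the log2 scale (SE, adjusted p = 0.00068), and Dhcr7 by -0.64 ± 0.18 (adjusted p = 0.0057). In CD14lo cDC the same differences from Ly6Chi moDC were -0.28 for Ebp and 0.11 for Dhcr7, and in CD14hi moDC they were -0.10 and 0.44, and none of these was called. The CD103+ cDC array of low Gapdh ratio, replicate 2, had the highest Dhcr7 of its population. With that ratio as a covariate the Dhcr7 difference of CD103+ cDC from Ly6Chi moDC was no longer called (adjusted p = 0.096). With the covariate the Ebp difference of CD103+ cDC from CD14lo cDC was not called either (adjusted p = 0.14), nor was it without CD14lo cDC replicate 1 (adjusted p = 0.12). Both high ratios, 3.26 and 3.27, were in CD103+ cDC, so this covariate cannot be fully told apart from that population. Whether RNA quality set these values was not tested.

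**Figure D2:**
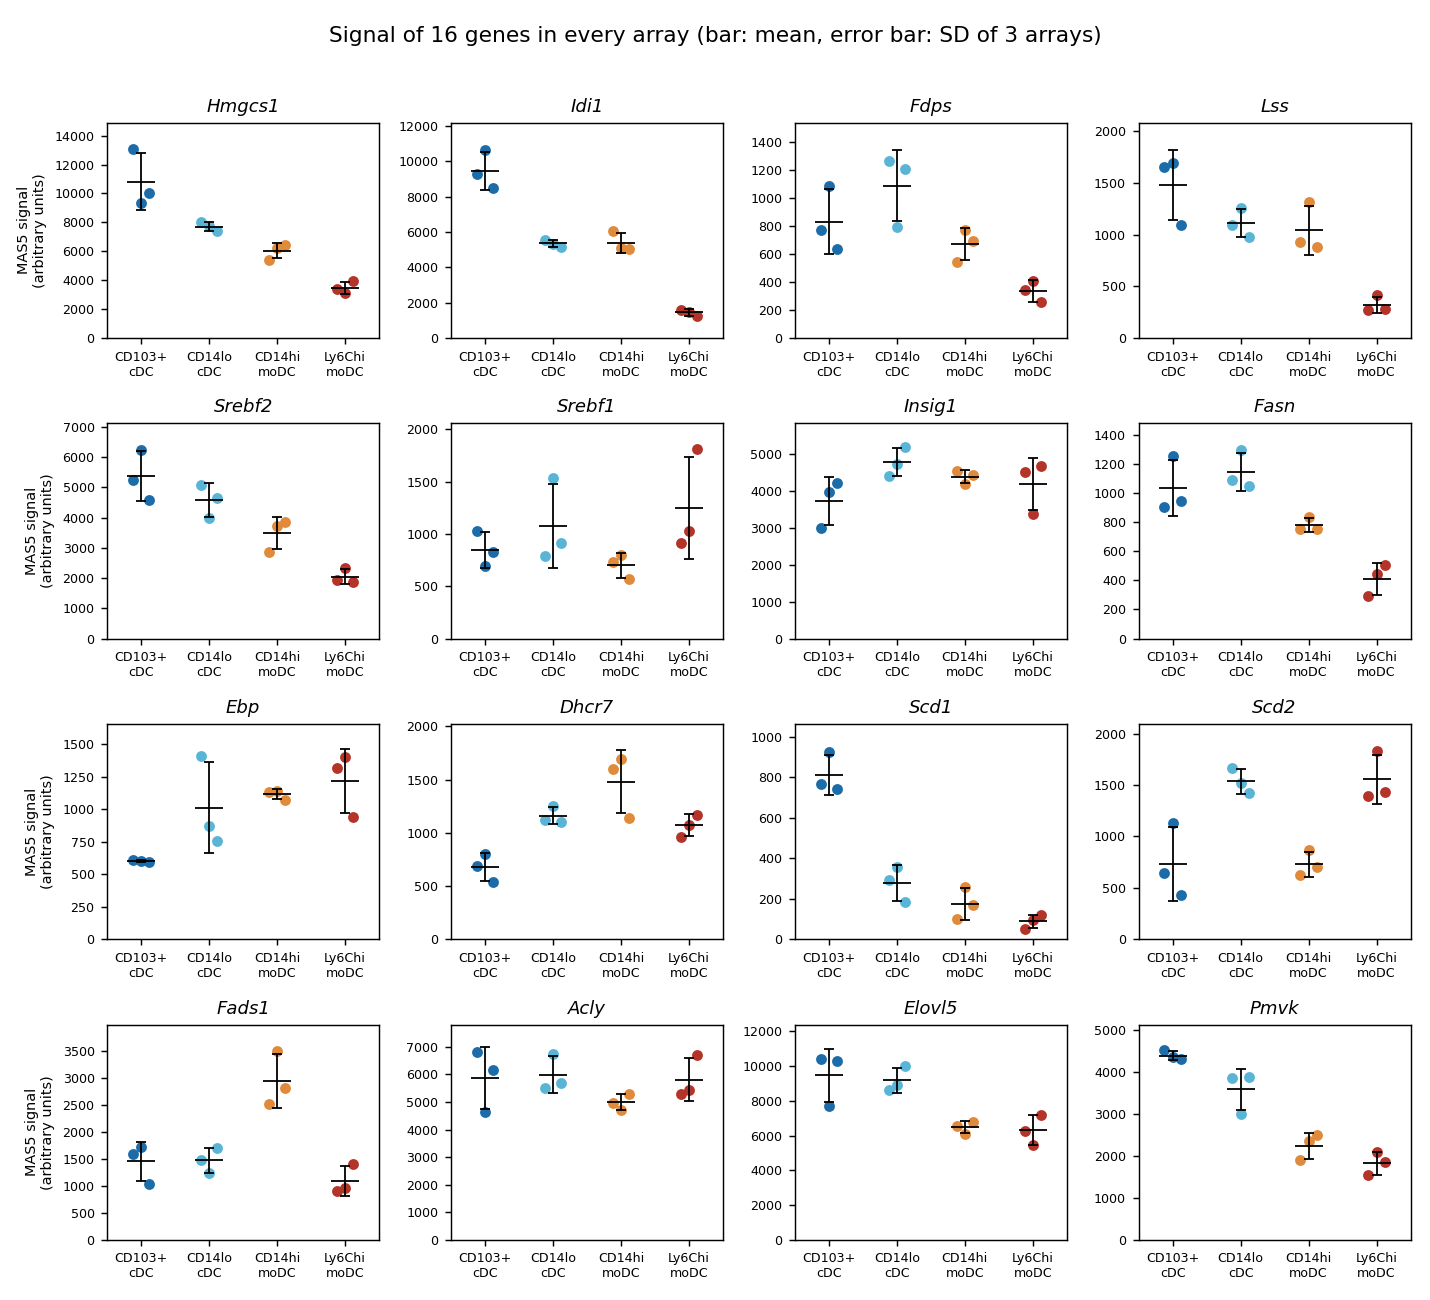
Each panel plots the MAS5 signal of 1 gene, in arbitrary units on an axis that starts at 0, in the 12 arrays. Points are arrays, the bar is the mean and the error bar the SD of 3 arrays. Hmgcs1, Idi1, Fdps, Lss, Srebf2 and Fasn are lowest in Ly6Chi moDC, Ebp and Dhcr7 are lowest in CD103+ cDC, Scd2 is high in CD14lo cDC and Ly6Chi moDC, and Fads1 is highest in CD14hi moDC.

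Of the 5 regulators, Srebf2 was the one whose Ly6Chi moDC arrays all lay lowest. Srebf2 was 5246, 6247 and 4594 in CD103+ cDC, 5080.4, 3976 and 4659.9 in CD14lo cDC, 2870.2, 3723 and 3849 in CD14hi moDC, and 1944, 2328 and 1875 in Ly6Chi moDC. The moDC populations did not overlap each other or the cDC populations, which overlapped each other. Against Ly6Chi moDC, Srebf2 was higher by 1.36 in CD103+ cDC (adjusted p = 7.0e-07), 1.14 in CD14lo cDC (adjusted p = 1.6e-05) and 0.74 in CD14hi moDC (adjusted p = 0.0019). A transcript level says nothing of how much of the protein is cleaved and active.

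Srebf1 gave 1028, 689.6 and 827 in CD103+ cDC, 789, 1536 and 911 in CD14lo cDC, 735, 795 and 566 in CD14hi moDC, and 911, 1033 and 1809 in Ly6Chi moDC. Its wide spread came from single arrays of CD14lo cDC and Ly6Chi moDC, and the populations overlapped, except that CD14hi moDC lay wholly below Ly6Chi moDC. That difference, -0.75 ± 0.25 (SE, adjusted p = 0.048), was close to the threshold and was lost under 14 of the alternative settings, with an adjusted p of up to 0.27. Those settings included leaving out any CD14hi moDC array, Ly6Chi moDC replicate 2 or 3, CD103+ cDC replicate 3 or CD14lo cDC replicate 3. Scap was called higher in CD103+ cDC than in Ly6Chi moDC, by 0.66, and higher in CD14lo cDC than in CD14hi moDC, by 0.63 (adjusted p = 0.027). The CD14lo cDC call of Scap was lost when CD14lo cDC replicate 2 was left out (adjusted p = 0.14), and likewise for CD14hi moDC replicate 1 (adjusted p = 0.099) and replicate 3 (adjusted p = 0.088). The Scap signal averaged 892 ± 84.7 for CD103+ cDC, 798 ± 172 for CD14lo cDC, 492 ± 66.7 for CD14hi moDC and 554 ± 129.7 for Ly6Chi moDC.

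Insig1, which is itself a well-known target of SREBP and holds the SREBP complex back, was called in no comparison. Its signal was 2991, 3969 and 4198 in CD103+ cDC, 4405, 4724 and 5179 in CD14lo cDC, 4523, 4171 and 4429 in CD14hi moDC, and 4492, 3377 and 4650.1 in Ly6Chi moDC. CD103+ cDC lay just below CD14lo cDC, and every other pair of populations overlapped. The 95% interval of its log2 difference from Ly6Chi moDC was -0.48 to 0.15 in CD103+ cDC, -0.11 to 0.52 in CD14lo cDC and -0.24 to 0.40 in CD14hi moDC. These intervals end below the differences measured for Idi1, Lss and Fdft1 in the same comparisons. Insig2, its relative, was not called in any comparison and had its widest spread in CD103+ cDC. The Insig2 signal averaged 591 ± 186 for CD103+ cDC, 367 ± 43.8 for CD14lo cDC, 460.1 ± 119 for CD14hi moDC and 430.1 ± 98.2 for Ly6Chi moDC. Stard4, which carries sterol between membranes, was higher than in Ly6Chi moDC in CD103+ cDC (1.74-fold), CD14lo cDC (2.04-fold) and CD14hi moDC (1.81-fold), with adjusted p of at most 0.0027. The Stard4 signal averaged 706 ± 51.8 for CD103+ cDC, 840.1 ± 94.2 for CD14lo cDC, 745 ± 127 for CD14hi moDC and 392 ± 102 for Ly6Chi moDC.

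The promoters were read for letters that SREBP and its partner NF-Y bind, and for the GC box as a further promoter motif. RefSeq on mouse build GRCm38.p6 gave 33 starts for 25 of the 32 genes, and the 250 bases before each start were searched on both strands. A gene was counted when any of its windows held the letters, and some genes had several windows. The sterol regulatory element TCACNCCAC was found for 1 gene, Hmgcs1, between 137 and 129 bases before its start, and 1.22% of all 27025 genes with a window held it. Other forms of the element and sites farther from the start were not searched, so a missing match does not mean that a gene lacks one. The CCAAT box, CCAAT or its complement ATTGG, was found for 20 of the 25 genes (80%), against 37.5% of all genes with a window and 40.2% of those tested here. It was present for all 10 genes with a window whose Ly6Chi moDC arrays were lowest and for 10 of the other 15. The GC box GGGCGG was found for 20 of the 25, against 35.4% of all genes and 63.7% of those tested, and the E-box CACGTG for 6 of the 25, against 6.86% and 10.2%. A match describes the letters and is not evidence of binding. The windows of Hmgcs1 (chr13:119690101-119690350, plus strand), Idi1 (chr13:8885356-8885605, plus strand), Lss (chr10:76531355-76531604, plus strand) and Hsd17b7 (chr1:169969206-169969455, minus strand) are shown for genes lowest in Ly6Chi moDC. Those of Ebp (chrX:8193513-8193762, minus strand) and Insig1 (chr5:28071162-28071411, plus strand) are shown for genes that were not. Each runs 5′ to 3′ and ends just before the start, with the sterol regulatory element and CCAAT boxes in capitals.
Hmgcs1: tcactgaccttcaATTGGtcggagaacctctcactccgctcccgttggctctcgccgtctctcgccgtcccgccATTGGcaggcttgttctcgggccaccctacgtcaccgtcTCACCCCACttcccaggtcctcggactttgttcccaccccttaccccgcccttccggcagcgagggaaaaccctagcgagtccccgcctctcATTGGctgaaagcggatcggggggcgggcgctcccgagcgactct
Idi1: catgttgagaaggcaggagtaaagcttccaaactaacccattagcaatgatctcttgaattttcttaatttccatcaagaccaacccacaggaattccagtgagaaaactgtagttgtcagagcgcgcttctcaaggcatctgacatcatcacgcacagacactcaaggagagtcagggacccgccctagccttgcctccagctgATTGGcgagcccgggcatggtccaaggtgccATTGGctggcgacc
Lss: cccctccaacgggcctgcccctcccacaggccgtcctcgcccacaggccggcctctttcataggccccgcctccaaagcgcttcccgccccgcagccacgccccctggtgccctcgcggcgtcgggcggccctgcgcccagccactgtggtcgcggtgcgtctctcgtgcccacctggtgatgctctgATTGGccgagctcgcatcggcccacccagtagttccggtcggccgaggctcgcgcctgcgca
Hsd17b7: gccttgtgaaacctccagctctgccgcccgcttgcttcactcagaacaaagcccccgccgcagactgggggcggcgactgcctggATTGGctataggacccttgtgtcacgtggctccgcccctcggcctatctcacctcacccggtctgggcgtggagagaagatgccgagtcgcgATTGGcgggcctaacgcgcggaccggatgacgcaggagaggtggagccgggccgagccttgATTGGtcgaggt
Ebp: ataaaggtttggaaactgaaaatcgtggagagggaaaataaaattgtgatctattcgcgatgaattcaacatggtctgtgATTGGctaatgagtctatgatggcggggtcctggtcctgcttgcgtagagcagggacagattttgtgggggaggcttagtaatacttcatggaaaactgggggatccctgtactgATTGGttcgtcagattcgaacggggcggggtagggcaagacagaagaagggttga
Insig1: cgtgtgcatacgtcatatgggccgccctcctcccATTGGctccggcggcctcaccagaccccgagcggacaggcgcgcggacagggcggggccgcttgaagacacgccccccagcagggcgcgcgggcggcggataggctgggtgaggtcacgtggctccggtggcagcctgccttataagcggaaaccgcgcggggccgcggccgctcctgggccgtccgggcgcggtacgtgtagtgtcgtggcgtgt
These windows held 3 CCAAT boxes for Hmgcs1, 2 for Idi1, 1 for Lss, 3 for Hsd17b7, 2 for Ebp and 1 for Insig1. They are a few of the windows searched, and none without a CCAAT box is shown.

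The fatty acid genes split by gene. Fasn, the synthase that makes palmitate, was 906, 1255 and 943 in CD103+ cDC, 1087, 1293 and 1048 in CD14lo cDC, 750.3, 833 and 755 in CD14hi moDC, and 288, 444 and 502 in Ly6Chi moDC. Every other array exceeded those of Ly6Chi moDC, and CD14hi moDC lay below both cDC populations. Fasn exceeded Ly6Chi moDC 2.38-fold in CD103+ cDC (adjusted p = 2.3e-05), 2.63-fold in CD14lo cDC (adjusted p = 1.6e-05) and 1.83-fold in CD14hi moDC (adjusted p = 0.0026). Acaca, the acetyl-CoA carboxylase that acts before it, was called against Ly6Chi moDC in CD14lo cDC (0.66, adjusted p = 0.039) and CD14hi moDC (0.70, adjusted p = 0.038) but in CD103+ cDC its log2 difference was 0.28 and was not called. The Acaca signal averaged 531 ± 148 for CD103+ cDC, 691 ± 92.9 for CD14lo cDC, 714 ± 128 for CD14hi moDC and 431 ± 134 for Ly6Chi moDC. Acly, which supplies cytosolic acetyl-CoA to both pathways, averaged 5875 ± 1113 for CD103+ cDC, 5991 ± 674 for CD14lo cDC, 4984 ± 289 for CD14hi moDC and 5815 ± 786 for Ly6Chi moDC (SD, n = 3 each) and was not called. The 95% interval of its log2 difference of CD103+ cDC from Ly6Chi moDC was -0.31 to 0.32.

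Scd1 and Scd2 encode stearoyl-CoA desaturases, which make monounsaturated fatty acids, and their patterns differed. Scd1 was 765, 924 and 741 in CD103+ cDC, 290.5, 356 and 182 in CD14lo cDC, 99.6, 256 and 169.9 in CD14hi moDC, and 50.9, 94.2 and 117 in Ly6Chi moDC. CD103+ cDC stood clear of the other arrays, and the Ly6Chi moDC values lay near the array medians, where the pseudocount understates a fold. Scd1 was higher in CD103+ cDC by 1.43 ± 0.27 against CD14lo cDC (adjusted p = 5.2e-04), by 1.99 ± 0.27 against CD14hi moDC (adjusted p = 1.0e-05) and by 2.67 ± 0.27 against Ly6Chi moDC (adjusted p = 1.5e-07), on the log2 scale.

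Scd1 had its highest mean in CD103+ cDC, as did 33.7% of all genes tested. The 6 tested markers of lung epithelium, whose type II cells make surfactant lipid, shared that place. All 6 were called higher in CD103+ cDC than in CD14lo cDC, against 13.4% of all genes tested. Sftpc, the surfactant protein C gene, averaged 928 for CD103+ cDC, 151 for CD14lo cDC, 355 for CD14hi moDC and 195 for Ly6Chi moDC. Epcam, also among the 6, averaged 2526, 598, 162 and 35.8 in the same order of populations. Scd1 averaged 276 ± 87.9 in CD14lo cDC and 175 ± 78.2 in CD14hi moDC (SD, n = 3 each), with overlapping arrays. Between these middle populations the means of Epcam and Scgb1a1 had the same order as Scd1. Those of Sftpc, Sftpb, Sftpa1 and Sftpd had the reverse order. The part of epithelial RNA in the Scd1 values was not tested.

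Scd2 was 644, 1127 and 428 in CD103+ cDC, 1662, 1523 and 1417 in CD14lo cDC, 625, 864 and 697 in CD14hi moDC, and 1396, 1830.5 and 1433 in Ly6Chi moDC. CD14lo cDC and Ly6Chi moDC were high and overlapped, and CD103+ cDC and CD14hi moDC were low and overlapped. Scd2 was lower in CD103+ cDC than in CD14lo cDC by -1.11 ± 0.24 (SE, adjusted p = 0.0016) and lower in CD14hi moDC than in Ly6Chi moDC by -1.04 ± 0.24 (adjusted p = 0.0041). Against Ly6Chi moDC it was lower in CD103+ cDC by -1.12 ± 0.24 (adjusted p = 7.1e-04), a call that was lost with the Gapdh ratio as a covariate (adjusted p = 0.071). It was higher in CD14lo cDC than in CD14hi moDC by 1.03 ± 0.24 (adjusted p = 0.0048). The CD103+ cDC array of low Gapdh ratio had the highest Scd2 of its population. Without the other 2 arrays of that population the Scd2 difference from CD14lo cDC was -0.43, in a setting chosen after seeing the data.

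Fads1, a desaturase of polyunsaturated fatty acids, was the single gene in which all CD14hi moDC arrays were highest, as they were for 3.43% of all genes tested. It read 1599.6, 1728 and 1039 in CD103+ cDC, 1481, 1244 and 1706 in CD14lo cDC, 2523, 3501 and 2822 in CD14hi moDC, and 908, 953 and 1412 in Ly6Chi moDC. CD14hi moDC exceeded Ly6Chi moDC 2.65-fold (adjusted p = 6.2e-05). Fads1 was lower in CD103+ cDC than in CD14hi moDC by -1.01 ± 0.20 (SE, adjusted p = 6.7e-04) and in CD14lo cDC by -0.97 ± 0.20 (adjusted p = 0.0023), but its other kept probe set gave -0.08 and -0.42 there and was not called. Elovl5, an elongase, was higher in both cDC populations than in both moDC populations, by 0.50 to 0.58 on the log2 scale. The Elovl5 signal averaged 9468 ± 1529 for CD103+ cDC, 9185 ± 734 for CD14lo cDC, 6481 ± 336 for CD14hi moDC and 6301 ± 865 for Ly6Chi moDC. The CD14lo cDC over CD14hi moDC call of Elovl5 was lost when CD14lo cDC replicate 3 was left out (adjusted p = 0.089), and likewise for CD14hi moDC replicate 2 (adjusted p = 0.076). Fads2, another desaturase, was called against Ly6Chi moDC in CD103+ cDC (0.89) and CD14lo cDC (1.30), and Elovl6, another elongase, was called in none. The Fads2 signal averaged 278 ± 176 for CD103+ cDC, 349 ± 15.6 for CD14lo cDC, 215 ± 127 for CD14hi moDC and 113 ± 19.1 for Ly6Chi moDC. The Elovl6 signal averaged 216 ± 81.1 for CD103+ cDC, 257 ± 35.4 for CD14lo cDC, 209.8 ± 125 for CD14hi moDC and 189 ± 33.2 for Ly6Chi moDC. The CD103+ cDC spread of Fads2 came from replicate 2, at 479, against 151 and 205 in the others.

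**Figure D3:**
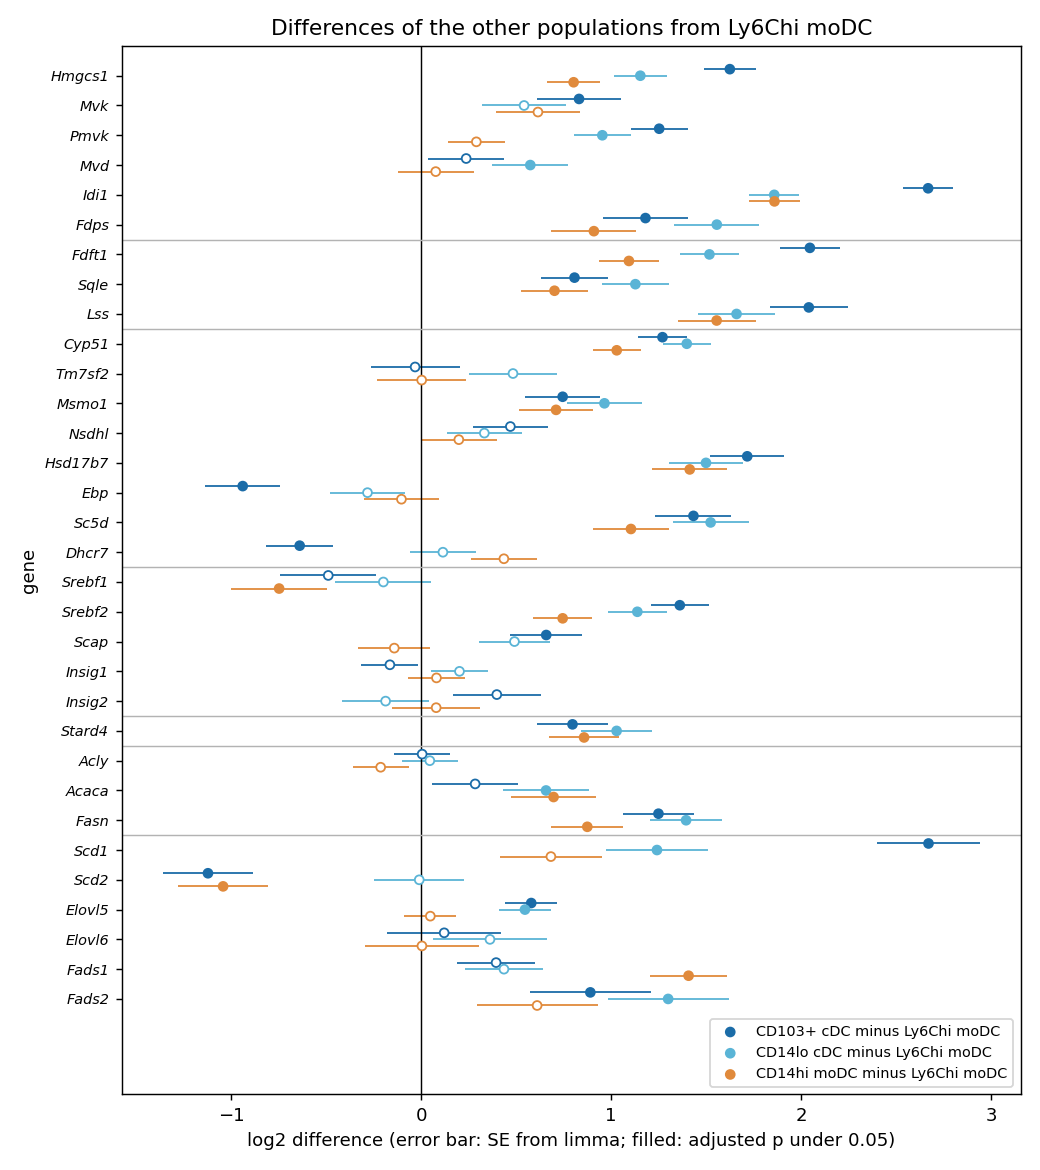
For each of the 32 genes, points give the log2 difference of CD103+ cDC, CD14lo cDC and CD14hi moDC from Ly6Chi moDC, and error bars the SE from limma over 3 arrays per population. Filled points had an adjusted p under 0.05. Idi1 and Scd1 lie farthest to the right in CD103+ cDC, at 2.67, and Scd2 farthest to the left, at -1.12.

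Counted over the 32 genes, the comparisons against Ly6Chi moDC were one-sided. In CD103+ cDC 19 genes were called higher (59.4%, against 23.2% of all genes tested) and 3 lower (9.38%, against 24.3%). In CD14lo cDC 19 were called higher (59.4%, against 14%) and 0 lower (against 11.2%). Even at an unadjusted p under 0.05 limma put 0 of the 32 lower there. In CD14hi moDC 15 were called higher (46.9%, against 11.4%) and 2 lower (6.25%, against 6.82%). The median log2 difference over the 32 genes was 0.77 in CD103+ cDC, 0.81 in CD14lo cDC and 0.65 in CD14hi moDC, beside -0.02, 0.01 and 0.01 over all genes tested.

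Among the 17 sterol enzymes, 12 were called higher than in Ly6Chi moDC in CD103+ cDC, 12 in CD14lo cDC and 10 in CD14hi moDC. In CD103+ cDC 2 were called lower, and in CD14lo cDC and CD14hi moDC 0, also at an unadjusted p under 0.05. Of the 9 fatty acid genes, 4 were called higher in CD103+ cDC, 5 in CD14lo cDC and 3 in CD14hi moDC, and 1, Scd2, was called lower in CD103+ cDC and in CD14hi moDC. Over all genes tested, the shares called higher were 23.2% in CD103+ cDC, 14% in CD14lo cDC and 11.4% in CD14hi moDC, and those called lower 24.3%, 11.2% and 6.82%. Proliferation genes were also low in Ly6Chi moDC. The summed signal of 9 cell cycle genes ran from 14554 to 17256 for CD103+ cDC, from 6316 to 8782 for CD14lo cDC, from 6408 to 7650 for CD14hi moDC and from 2562 to 3683 for Ly6Chi moDC, and 8 of the 9 were called higher in each of the 3 populations than in Ly6Chi moDC. The summed signal of 4 neutrophil genes was 249.6 to 1829 for CD103+ cDC, 867 to 1249.8 for CD14lo cDC, 919 to 2053 for CD14hi moDC and 3860 to 4159 for Ly6Chi moDC. In Ly6Chi moDC it came mostly from Csf3r (mean 1533), S100a8 (1257) and S100a9 (1214). Cxcr2, the remaining gene, averaged 45.3 there and did not pass the signal filter. The summed signal of 8 alveolar macrophage genes ran from 1453 to 5362 for CD103+ cDC and from 1394 to 8834 for CD14lo cDC. It ran from 2048 to 4777 for CD14hi moDC and from 6406 to 8506 for Ly6Chi moDC, where Chil3 averaged 6685. Of the 7 tested, 2 were called higher and 1, Chil3, lower in each of the other populations than in Ly6Chi moDC. The part of proliferation, of neutrophil RNA or of alveolar macrophage RNA in these differences was not tested.

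Fewer of the 32 genes were called in the other 3 pairs. Between CD103+ cDC and CD14lo cDC, 4 genes were called higher (12.5%, against 13.4% of all genes tested) and 3 lower (9.38%, against 15.3%). The higher ones were Scd1, Idi1 by 0.81 ± 0.13 (SE, adjusted p = 1.3e-04), Fdft1 by 0.53 ± 0.16 (adjusted p = 0.016) and Hmgcs1 by 0.47 ± 0.14 (adjusted p = 0.015), and the lower ones Scd2, Dhcr7 and Ebp. The Hmgcs1 and Fdft1 calls were lost without CD103+ cDC replicate 1 (adjusted p = 0.091 and 0.068) and without CD14lo cDC replicate 3 (adjusted p = 0.059 and 0.069), which brought the count of higher genes to 2. Fdft1 was also lost without CD14lo cDC replicate 1 (adjusted p = 0.052). With the Gapdh ratio as a covariate both calls were lost, at a log2 difference of 0.31 for Hmgcs1 (adjusted p = 0.16) and 0.39 for Fdft1 (adjusted p = 0.13). Without both CD103+ cDC arrays of high Gapdh ratio, which leaves 1 array, the log2 differences were 0.27 for Hmgcs1 and 0.41 for Fdft1. Between CD103+ cDC and CD14hi moDC, 8 were called higher (25%, against 16.9%) and 3 lower (9.38%, against 20.3%). The higher ones were led by Scd1, Pmvk at 1.95-fold (adjusted p = 5.2e-05), Fdft1 at 1.94-fold (adjusted p = 9.3e-05) and Hmgcs1 at 1.77-fold (adjusted p = 1.1e-04), and the lower ones were Dhcr7, Fads1 and Ebp. The Ebp call was lost with the Gapdh ratio as a covariate (-0.64, adjusted p = 0.068). Without both CD103+ cDC arrays of high Gapdh ratio the log2 difference of Ebp was -0.83, against -0.84 with all arrays.

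Between CD14lo cDC and CD14hi moDC, 4 genes were called higher (12.5%, against 6.95% of all genes tested) and 1 lower (3.12%, against 9.24%). These were Scd2, Pmvk, Scap and Elovl5 as higher and Fads1 as lower, and Pmvk was the single sterol enzyme among them, at 0.66 ± 0.15 (SE, adjusted p = 0.0043). The count rose to 9 genes with the mean of the probe sets of a gene in place of its brightest one. In the test for any difference among the 4 populations, 24 of the 32 genes were called (75%, against 51.1% of all genes tested).

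Averaged over both populations of each lineage, cDC exceeded moDC in 19 of the 32 genes (59.4%, against 20.8% of all genes tested) and were lower in 2 (6.25%, against 20.7%). Scd1 led at 3.06-fold (adjusted p = 1.5e-06), followed by Idi1 at 2.52-fold (adjusted p = 1.5e-09), Fdft1 at 2.35-fold (adjusted p = 4.0e-08) and Lss at 2.10-fold (adjusted p = 7.5e-06). The 2 lower genes were Ebp and Dhcr7, and both calls were lost with the Gapdh ratio as a covariate (adjusted p = 0.051 each), which left 17 genes higher and 0 lower. Without both CD103+ cDC arrays of high Gapdh ratio, the Dhcr7 difference was -0.36 on the log2 scale, against -0.48 with all arrays. This average hides the split of the moDC: Idi1 averaged 5352 ± 195 for CD14lo cDC, 5373 ± 564 for CD14hi moDC and 1447 ± 186 for Ly6Chi moDC (SD, n = 3 each).

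**Figure D4:**
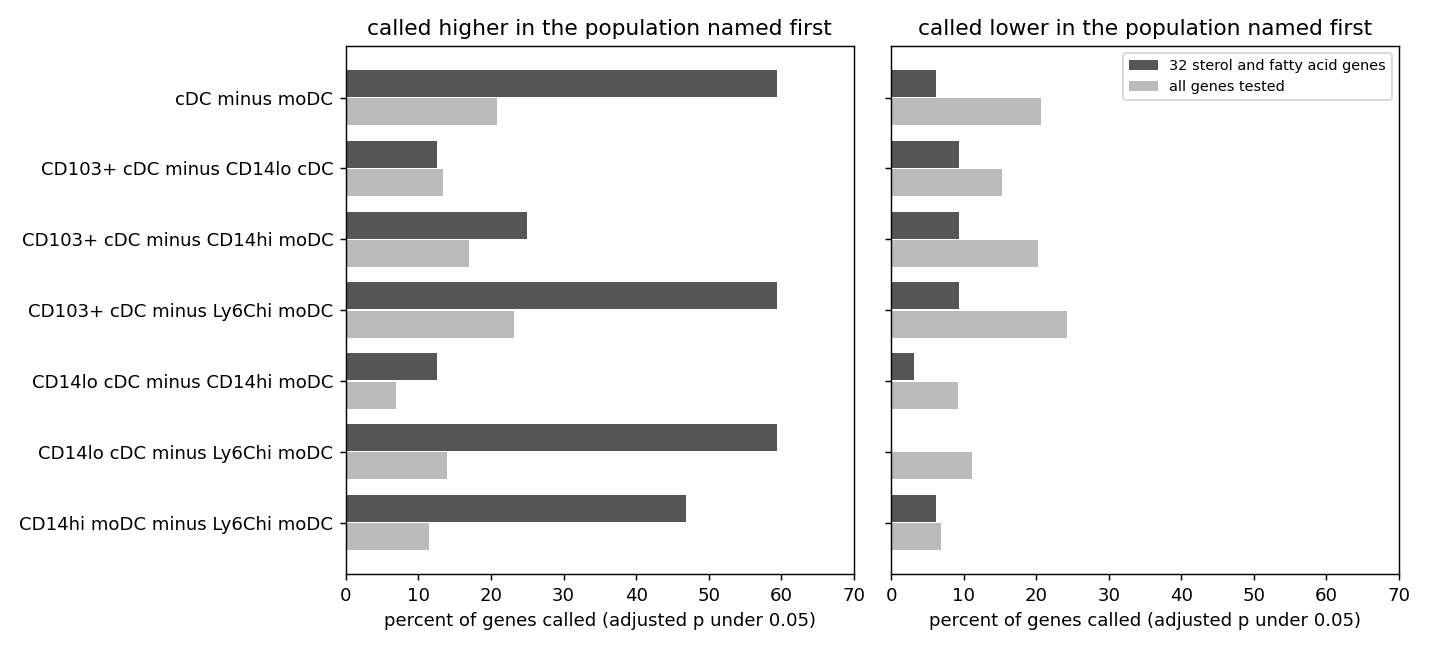
Bars starting at 0 give the percent of genes called higher (left) or lower (right) in the population named first, in each of the 7 comparisons, for the 32 genes (dark) and for all 10929 genes tested (light). The dark bars are longest for the higher calls of cDC minus moDC, CD103+ cDC minus Ly6Chi moDC and CD14lo cDC minus Ly6Chi moDC, at 59.4%.

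A wider list of SREBP pathway and lipid supply genes, 22 of which were tested, was counted beside the 32. Against Ly6Chi moDC, 3 were called higher and 7 lower in CD103+ cDC, 2 higher and 3 lower in CD14lo cDC, and 2 higher and 0 lower in CD14hi moDC, where 1 was lower at an unadjusted p under 0.05. Over all genes tested, 23.2% were called higher and 24.3% lower in CD103+ cDC, 14% and 11.2% in CD14lo cDC, and 11.4% and 6.82% in CD14hi moDC, so these small counts against Ly6Chi moDC give no result about the list. For cDC minus moDC, 3 of the 22 were called higher and 9 lower, beside 20.8% and 20.7% of all genes tested. The median log2 difference there was -0.01 over the 22 genes and 0.52 over the 32. Acss2, which makes acetyl-CoA from acetate, averaged 420.5 for CD103+ cDC, 1478 for CD14lo cDC, 489 for CD14hi moDC and 350.4 for Ly6Chi moDC, and was called in CD14lo cDC by 2.01 against Ly6Chi moDC. Npc1, which releases cholesterol from lysosomes, averaged 596 for CD103+ cDC, 963 for CD14lo cDC, 1432 for CD14hi moDC and 1591 for Ly6Chi moDC.

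LXR, encoded in part by Nr1h3, is the receptor that senses sterol excess and turns on its export. All 6 genes tested of a list of LXR targets and sterol export were called lower in cDC than in moDC, against 20.7% of all genes tested. Between CD14hi moDC and Ly6Chi moDC 0 of the 6 were called by limma, where 3 were lower at an unadjusted p under 0.05. Over all genes tested, 11.4% were called higher and 6.82% lower there, so this count of 0 gives no result about the list. Abca1, the sterol exporter, averaged 55.5 for CD103+ cDC, 191 for CD14lo cDC, 1388 for CD14hi moDC and 1966 for Ly6Chi moDC.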

How the data were processed

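RNA of 12 samples, 3 in each of 4 sorted populations, was measured on Affymetrix mouse arrays of 45101 probe sets. The deposited values are linear MAS5 intensity values, per the submitters' processing notes, and the 2% trimmed mean of each array was 500.003. The labels name neither the MAS5 version nor its target, and detection calls were not used here. Probe sets entered the fit when brighter than the array median on 3 or more of the 12 arrays, and only probe sets with 1 symbol in the platform annotation were assigned to genes. The brightest of these stood for its gene. A pseudocount of 50.0003, 10% of the trimmed mean, was added before log2, so folds of dim genes are understated. In limma 3.58.1 under R 4.3.3, lmFit and eBayes with an intensity trend gave 1 mean per population and left 8 degrees of freedom. Calls needed a two-sided Benjamini-Hochberg adjusted p under 0.05 over 10929 genes, in each of 7 comparisons. All p-values are from limma.

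The 33 genes, their roles and the other lists were chosen with earlier results of these data known. Full statistics were meant for up to 4 called higher and up to 4 called lower genes of the largest difference in each comparison. The array values of Cyp51, Srebf2, Insig1 and Fasn and the statistics of other genes were added after their values were seen. Promoters came from RefSeq (GRCm38.p6). Scripts were checked on simulated data. Alternatives were other scalings, pseudocounts, filters and fits, the mean of probe sets, a 2-fold minimum, the replicate number as a block, the Gapdh ratio as a covariate and each array left out. The number of arrays limits the precision. The labels do not tie replicate numbers to shared mice, and p-values measure the spread between pools of mice.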

Additional observations from a re-analysis of the deposited data

How the results depend on the processing

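Of the 1044 values of named genes under alternative settings, 983 kept their direction and side of the threshold, 61 lost the call and 0 reversed. Many of these settings leave the log2 difference itself unchanged and so could not reverse it. They include the filters, the fit without an intensity trend, the 2-fold minimum and the replicate block. Leaving out an array of a population that is not compared is another. Leaving out 1 array in turn gave 20 to 22 genes called for cDC minus moDC, 5 to 9 for CD103+ cDC minus CD14lo cDC, 11 to 12 for CD103+ cDC minus CD14hi moDC, 21 to 23 for CD103+ cDC minus Ly6Chi moDC, 4 to 7 for CD14lo cDC minus CD14hi moDC, 17 to 19 for CD14lo cDC minus Ly6Chi moDC and 13 to 17 for CD14hi moDC minus Ly6Chi moDC.

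A 2-fold minimum left fewer genes, since it adds a condition. It left 4 for cDC minus moDC (12.5%, against 10.9% of all genes tested) and 2 for CD103+ cDC minus CD14lo cDC (6.25%, against 10.8%). For CD103+ cDC minus CD14hi moDC it left 3 (9.38%, against 15.7%) and for CD14lo cDC minus CD14hi moDC 1 (3.12%, against 6.98%). Against Ly6Chi moDC it left 13 in CD103+ cDC (40.6%, against 22.3%), 14 in CD14lo cDC (43.8%, against 10.9%) and 8 in CD14hi moDC (25%, against 7.73%). CD14lo cDC minus CD14hi moDC gave 9 genes with the mean of probe sets and 8 with only the arrays compared, and the cause was not tested. CD103+ cDC minus CD14lo cDC gave 4 with the Gapdh ratio as a covariate. It gave 2 without both CD103+ cDC arrays of high Gapdh ratio, a setting chosen after seeing the data that leaves 1 array assumed to vary like the other groups. The stricter filter kept 28 of the 32 genes.

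With replicate number as a block, 22 genes were called for cDC minus moDC and 7 for CD103+ cDC minus CD14lo cDC. Deviations of same-numbered arrays correlated between -0.11 and 0.24 over 18 pairs, so the numbers were not taken to pair the samples.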

Other observations

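Different probe sets of the same gene mostly gave the same picture. In CD103+ cDC minus Ly6Chi moDC, 15 called genes had other kept probe sets, 25 in all, of which 25 had the same sign and 23 were also called. In CD14lo cDC minus Ly6Chi moDC, 24 of 24 had the same sign and 21 were called, and in CD14hi moDC minus Ly6Chi moDC 22 of 22 and 18. Some genes not called by their brightest probe set were called by another. Insig2, an SREBP retention protein, was higher in CD103+ cDC than in CD14lo cDC by 0.82 and 0.79 in its other probe sets, against 0.59 in the brightest. Acaca was higher in CD103+ cDC than in Ly6Chi moDC by 0.63 in another probe set, against 0.28 in the brightest.

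Lipid supply genes outside the 32 had patterns of their own. Acsl3, which activates fatty acids, averaged 112 for CD103+ cDC, 253 for CD14lo cDC, 455 for CD14hi moDC and 260.1 for Ly6Chi moDC. Agpat2, which adds a fatty acid on the way to phospholipid and triglyceride, averaged 122 for CD103+ cDC, 417 for CD14lo cDC, 549 for CD14hi moDC and 711 for Ly6Chi moDC. Aacs, which activates acetoacetate for lipid synthesis, averaged 550.1 for CD103+ cDC, 477 for CD14lo cDC, 329.6 for CD14hi moDC and 259 for Ly6Chi moDC.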
